A study of Homo sapiens with 9 samples.

Results

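Molecular chaperones and protein folding enzymes were examined in HepG2 cells in which the long noncoding RNA *TUG1* had been silenced. The members were the rows whose gene symbol begins with HSPA, HSPB, HSPD, HSPE, HSPH, HSP90, DNAJA, DNAJB, DNAJC or PDIA, or with CCT and a digit, together with *TCP1*. This rule uses names and no measured value, and it took 79 of the 12854 genes present in both count tables, with 78 distinct symbols because *HSPA14* has 2 rows. Of the 79, 37 were assigned to the cytosol, 18 to the endoplasmic reticulum (ER) and 10 to mitochondria, and 14 to other or mixed locations.

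HepG2 is a human liver tumour line that keeps many hepatocyte genes. RNA-seq was done on 9 libraries, 3 each of control cells (sh-Con, genotype label WT) and of a pair of lines labelled *TUG1* knockdown. These are sh1-*TUG1* and sh2-*TUG1*, each expressing a different hairpin against *TUG1*. All lines were grown in low-glucose medium with serum and, by the study's methods, carried a lentiviral Tet-pLKO-Puro vector whose hairpin is switched on by doxycycline, with a control hairpin in sh-Con. How long the hairpins were induced is not given in the sources used here. The methods call the 3 replicates of a group technical, so the p-values measure the spread between these libraries, and each hairpin is represented by 1 stable line. The *TUG1* row was not analysed here, so the knockdown labels were not checked against it.

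The tables held between 33054291 and 39393293 gene counts per library. Levels are given in CPM, a gene's count scaled to a library total of 1000000. Of 8 hepatocyte markers, all 8 were listed, at mean levels in sh-Con from 103 CPM for *FGB* to 13505 CPM for *ALB*. They moved with the lines, 5 rising and 1 falling with the sh1 hairpin and 3 rising and 4 falling with the sh2 hairpin, with log2 fold changes from -0.24 to 0.49 and from -0.82 to 0.91. Of 8 markers of other cells, 4 were listed (*CD68*, *ACTA2*, *PECAM1* and *VWF*), with summed levels of 104 to 120 CPM in sh-Con, 88.3 to 95.9 CPM in sh1-*TUG1* and 64.5 to 72.5 CPM in sh2-*TUG1*. Of these, *CD68* fell in both lines (-0.86 and -1.61), *VWF* rose in both (1.40 and 1.65), *ACTA2* rose in sh1-*TUG1* (0.27) and *PECAM1* was called in neither, while *PTPRC*, *COL1A1*, *COL1A2* and *CD3E* were not listed. The part of either marker set in the ER and other results was not tested. Libraries of 1 group differed by more than sampling noise (chi-squared per degree of freedom 6.67 to 24.9), so none was counted as a duplicate. Within sh-Con, which both lines are compared with, replicate 1 stood apart (22.1 and 24.9, against 10.8 between replicates 2 and 3). Within sh2-*TUG1* it was replicate 3 (17.8 and 15.8, against 6.67 between replicates 1 and 2). In bulk RNA, fewer cells holding a transcript and less of it in each cell cannot be told apart.

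Chaperones bind unfolded stretches of protein and let them fold without clumping. HSP70 proteins do this in cycles of ATP hydrolysis that J proteins (DNAJA, DNAJB and DNAJC) start and HSP110 proteins reset. HSP90 proteins mature signalling clients, small heat shock proteins hold unfolded chains, and the ring-shaped TRiC chaperonin folds actin and tubulin. The ER has its own set, in which the HSP70 protein BiP (*HSPA5*), the HSP90 protein GRP94 (*HSP90B1*) and protein disulfide isomerases (PDIs) fold secreted and membrane proteins, a heavy task in liver cells that secrete plasma proteins. Heat shock factors raise the cytosolic set through heat shock elements, and the unfolded protein response, sensed by *ATF6*, IRE1 (*ERN1*) and PERK (*EIF2AK3*), raises the ER set through ER stress elements.

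Windows with these elements are shown because they are a feature of the members that the choice by name did not use. Promoters (250 bases before to 50 after each start, RefSeq, build GRCh38.p14) were given for 69 of the 79 members. Capitals mark the fixed letters of the searched motifs. The ER stress element, searched as CCAAT, any 9 bases and CCACG, is in the first 4 lines. The heat shock element, searched as TTC, any 2 bases, GAA, any 2 bases and TTC, is in the other lines.
HSPA5: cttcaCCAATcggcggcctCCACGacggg
HSP90B1, first window: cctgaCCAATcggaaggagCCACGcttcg
HSP90B1, second window: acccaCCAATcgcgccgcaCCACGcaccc
PDIA6: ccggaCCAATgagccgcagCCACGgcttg
DNAJA1: accgagcgTTCtgGAAagTTCcgcccggc
HSP90AA1: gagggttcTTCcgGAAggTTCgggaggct
HSP90AB1: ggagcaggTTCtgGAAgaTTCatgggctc
HSPA8: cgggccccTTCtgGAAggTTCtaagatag

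The *HSPA5* window is on the minus strand at chr9:125241386-125241414, with its centre 57 bases upstream of the start. The *HSP90B1* windows are on the plus strand at chr12:103930211-103930239 and on the minus strand at chr12:103930316-103930344. The *PDIA6* window is on the minus strand at chr2:10812848-10812876. The *DNAJA1* window is on the minus strand at chr9:33025268-33025296 and that of *HSP90AA1* on the minus strand at chr14:102087112-102087140. The *HSP90AB1* and *HSPA8* promoters each held a second match, not printed, at chr6:44247823-44247851 (plus strand) and chr11:123062346-123062374 (plus strand). The printed window of *HSP90AB1* is on the plus strand at chr6:44247770-44247798 and that of *HSPA8* on the minus strand at chr11:123062171-123062199. On either strand, the ER stress element was found in 3 of 92 member promoters (3.26%) and in 23 of 22199 promoters of protein-coding genes (0.104%). The 3 genes were all among the 16 ER members with a promoter. The heat shock element was found in 6 of 92 member promoters (6.52%) and in 90 of 22199 (0.405%). It stood in the 5 cytosolic members *DNAJA1*, *DNAJB6*, *HSP90AA1*, *HSP90AB1* and *HSPA8* and in the mitochondrial member *HSPD1*. *HSPA1A*, *HSPA1B*, *HSPH1* and *DNAJB1* had a promoter entry and no match. The search took exact letters within the promoters given, so elements spelled otherwise or lying elsewhere were not sought. No member promoter held both motifs, the pair of matches in *HSPD1* lay on opposite strands and overlapped, and a match describes letters, not binding. Members without a promoter entry were *CCT6A*, *DNAJC1*, *DNAJC22*, *DNAJC24*, *HSPA12B*, *HSPA14*, *HSPB11*, *HSPB2-C11orf52* and *PDIA3*.

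In control cells the ER set had the largest summed CPM, at 16993 ± 469 CPM (SD, n = 3), against 7802 ± 68.3 CPM for the cytosolic and 3215 ± 100 CPM for the mitochondrial members. CPM is not corrected for transcript length, so these sums also depend on the lengths of the genes. *HSPA5*, *HSP90B1* and *PDIA3* made up 69.6% of the ER sum. Per kilobase of exon, *HSPA5* had the highest level in sh-Con at 1583 CPM per kb, followed by *HSP90B1* at 839, the cytosolic HSP90 gene *HSP90AB1* at 700.4, *PDIA4* at 453 and the mitochondrial chaperonin *HSPD1* at 427. *PDIA6* followed at 407, *PDIA3* at 399.9 and the constitutive HSP70 gene *HSPA8* at 207. Exon length joined all annotated exons of a gene, so these values also depend on which transcripts are annotated. At the other end, 17 members were below 10 CPM in sh-Con, among them *HSPB8*, *PDIA2*, *CCT6B* and *HSPA12A*, and the median member was at 61.1 CPM.

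With edgeR's quasi-likelihood test and Benjamini–Hochberg adjustment over all genes, which is the source of every adjusted p given here, a gene was called when its adjusted p was under 0.05. Against sh-Con, sh1-*TUG1* had 9 members higher and 15 lower, which is 30.4% of the 79 beside 24.8% of all 13017 genes tested. In sh2-*TUG1*, 18 were higher and 14 lower, 40.5% beside 43.5% of 12953 genes. The members as a whole were therefore called about as often as other genes. Their log2 fold changes had medians of -0.06 for sh1-*TUG1* and 0.05 for sh2-*TUG1*, beside 0.0027 and -0.0048 over all genes. When a fold change over 1.5 was also required, a criterion the study used, 2 members were left in sh1-*TUG1*, both higher (*HSPB8* and *HSPB2-C11orf52*, beside 2.44% of all genes). In sh2-*TUG1* there were 4, all higher (*HSPB8*, *HSPH1*, *PDIA2* and *DNAJC9*, beside 4.35% of all genes). The shares of all genes that were lower by this criterion are not given here. In the study's own counts, more genes fell than rose by it in both lines, most clearly in sh2-*TUG1*. Whichever library was left out, 3 of the 9 higher and 7 of the 15 lower calls stood in sh1-*TUG1*, and 10 of 18 and 9 of 14 in sh2-*TUG1*. The higher count in sh1-*TUG1* was 3 to 5 without sh-Con replicate 2 or 3 or any of the sh1-*TUG1* libraries, and the lower count was 7 without sh1-*TUG1* replicate 1 and 9 without sh1-*TUG1* replicate 3.

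**Figure D1:**
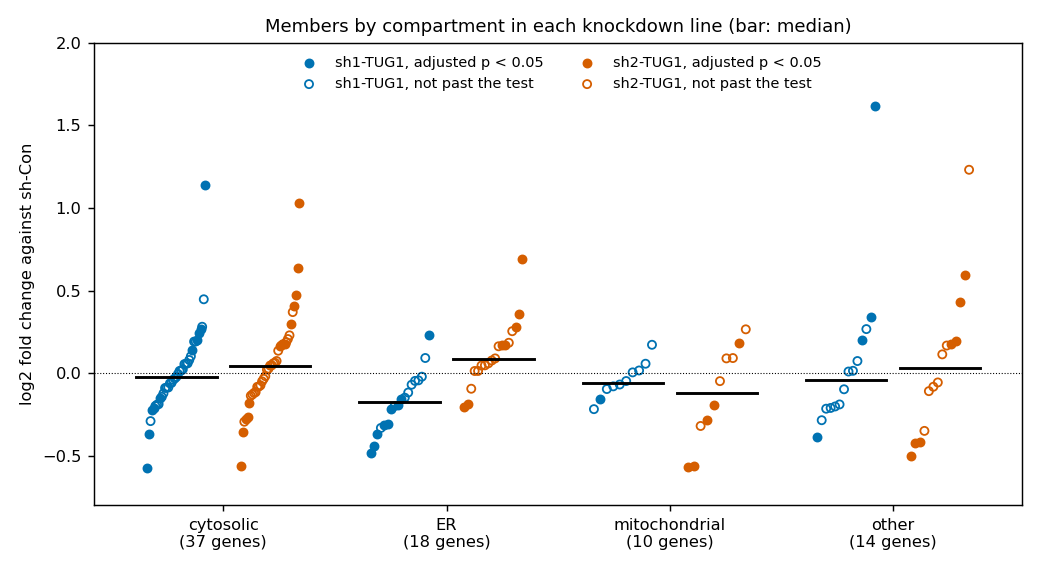
Log2 fold change of each of the 79 members against sh-Con (vertical axis) by compartment (horizontal axis), for sh1-*TUG1* (blue) and sh2-*TUG1* (orange), with filled points for adjusted p under 0.05 and a bar at the median. The ER median lies at -0.18 in sh1-*TUG1* and 0.08 in sh2-*TUG1*, while the cytosolic medians are -0.02 and 0.05.

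In sh1-*TUG1* part of the ER set was lower. Of the 18 ER members, 8 fell (*HSPA5*, *HSPA13*, *HSP90B1*, *DNAJB9*, *DNAJB11*, *DNAJC1*, *DNAJC10* and *PDIA4*) and 1 rose (*DNAJC16*), where 12.3% of all genes fell and 12.5% rose, and the median log2 fold change was -0.18. The other 9 were not called. The summed ER level was 14649, 14502 and 14182 CPM in sh1-*TUG1*, below the 17355, 17162 and 16463 CPM of sh-Con. That is 85.0% of the control mean, while the 5 PDI members alone summed to 94.1% of theirs. In sh2-*TUG1* the sum was 17088, 17212 and 17119 CPM, inside the control range. When each library was left out in turn, 5 of the 8 remained called in every case (*HSPA5*, *HSPA13*, *HSP90B1*, *DNAJB9* and *DNAJC10*). Without sh1-*TUG1* replicate 1 or replicate 3 the count was 5, the calls of *DNAJB11* and *DNAJC1* ending at adjusted p of 0.060 to 0.064.

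*HSPA5* encodes BiP, the ER HSP70 protein that binds incoming chains and also holds the stress sensors inactive (chromosome 9, 125234853 to 125241330, minus strand, GRCh38, GENCODE 29). It stood at 6279, 6285 and 5999 CPM in sh-Con cells, 4853, 4822 and 4708 CPM in sh1-*TUG1* cells and 6358, 6474 and 6384 CPM in sh2-*TUG1* cells. Every sh1-*TUG1* library was below every control library, and every sh2-*TUG1* library was slightly above. The log2 fold change was -0.37 ± 0.03 (SE; adjusted p = 7.09e-05) in sh1-*TUG1* and 0.05 ± 0.04 (adjusted p = 0.333) in sh2-*TUG1*. *HSPA13*, a small HSP70-like ATPase of the ER, was at 199, 235 and 228 CPM in control cells, 157, 160 and 157 CPM with the sh1 hairpin and 234, 237 and 214 CPM with the sh2 hairpin. It fell in sh1-*TUG1* (log2 fold change -0.48 ± 0.06, adjusted p = 0.00057). In sh2-*TUG1* its libraries overlapped those of sh-Con (0.05 ± 0.07, adjusted p = 0.626).

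*HSP90B1*, which encodes GRP94, the ER HSP90 protein that folds integrins and Toll-like receptors, was at 4147, 3932 and 3733 CPM across sh-Con, 3441, 3417 and 3322 CPM across sh1-*TUG1* and 3420, 3328 and 3520 CPM across sh2-*TUG1*. Both knockdown lines lay below all control libraries, and *HSP90B1* fell with the sh1 hairpin (-0.22 ± 0.04, adjusted p = 0.00502) and with the sh2 hairpin (-0.20 ± 0.05, adjusted p = 0.00663). The lines share the control libraries, so these values are not independent of each other. Although *HSPA5* and *HSP90B1* both hold an ER stress element, only *HSP90B1* was called in sh2-*TUG1*, and the difference between the sh2-*TUG1* changes of these genes was not tested.

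The ER J proteins recruit BiP to particular tasks. *DNAJB9* (ERdj4), which brings BiP to IRE1 and to misfolded chains, was at 228, 259 and 245 CPM in sh-Con cells, 187, 177 and 174 CPM in sh1-*TUG1* cells and 299, 300 and 288 CPM in sh2-*TUG1* cells. The 3 groups did not overlap, with sh1-*TUG1* lowest and sh2-*TUG1* highest. *DNAJB9* fell in sh1-*TUG1* (-0.44 ± 0.06, adjusted p = 0.000452) and rose in sh2-*TUG1* (0.28 ± 0.06, adjusted p = 0.00316). *DNAJB11* (ERdj3), which binds nascent secreted proteins with BiP, was at 465, 427 and 421 CPM in control cells, 379, 394 and 375 CPM with the sh1 hairpin and 488, 494 and 496 CPM with the sh2 hairpin, again in separate ranges. Its log2 fold changes were -0.19 ± 0.05 (adjusted p = 0.0143) and 0.17 ± 0.05 (adjusted p = 0.0185). Its sh2-*TUG1* call ended without sh-Con replicate 2 or 3 or without sh2-*TUG1* replicate 1 or 2 (adjusted p 0.050 to 0.073). Its sh1-*TUG1* call ended without sh1-*TUG1* replicate 1 or 3, with adjusted p of 0.061 to 0.064. Both genes overlap others, *DNAJB9* on the opposite strand (*PNPLA8* and *THAP5*) and *DNAJB11* on both strands (*AC068631.2* and *TBCCD1*). The strand setting of the counting is not given in the sources used here, so such genes may share reads. So may the members named here that overlap a gene on the opposite strand (*HSP90B1*, *PDIA3*, *PDIA6*, *HSP90AA1*, *HSPA12A*, *DNAJB1*, *TCP1* and *CCT6B*).

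*DNAJC3* (P58IPK), a J protein that acts in the ER lumen and is known for dampening PERK signalling, was at 206, 251 and 242 CPM across sh-Con, 218, 212 and 214 CPM across sh1-*TUG1* and 309, 309 and 278 CPM across sh2-*TUG1*. The sh2-*TUG1* libraries stood above all others, and *DNAJC3* rose there (0.36 ± 0.08, adjusted p = 0.00474). The sh1-*TUG1* libraries lay within the control range (-0.12 ± 0.07, adjusted p = 0.247). Without sh-Con replicate 1, the lowest of the control libraries for *DNAJC3*, the sh1-*TUG1* value passed the test (-0.20, adjusted p = 0.0017). *DNAJC10* (ERdj5), a J protein that reduces wrong disulfide bonds, fell in sh1-*TUG1* from 548, 594 and 579 CPM to 470, 463 and 455 CPM (-0.31 ± 0.04, adjusted p = 0.000765). In sh2-*TUG1* it stood at 613, 609 and 575 CPM, overlapping sh-Con (0.06 ± 0.05, adjusted p = 0.355).

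Among the PDI members, which form and rearrange disulfide bonds, *PDIA3* (ERp57), the partner of calnexin and calreticulin, was at 1771, 1675 and 1640 CPM in sh-Con cells, 1650, 1635 and 1564 CPM in sh1-*TUG1* cells and 1901, 1911 and 1931 CPM in sh2-*TUG1* cells. The sh1-*TUG1* range overlapped sh-Con (-0.07 ± 0.04, adjusted p = 0.249) and *PDIA3* rose in sh2-*TUG1* (0.17 ± 0.04, adjusted p = 0.00873). *PDIA6*, which binds BiP, stayed between 1592 and 1821 CPM in all 9 libraries and was called in neither line (log2 fold changes -0.05 and 0.08). *PDIA4* fell in sh1-*TUG1* (-0.16 ± 0.05, adjusted p = 0.0336), a call that ended without sh-Con replicate 2 or without any of the sh1-*TUG1* libraries (adjusted p 0.066 to 0.11). *PDIA5* fell in sh2-*TUG1* (-0.18 ± 0.06, adjusted p = 0.0347; 0.066 to 0.11 without sh-Con replicate 1 or sh2-*TUG1* replicate 1 or 2). *PDIA2*, a PDI known mainly from pancreas, was low throughout, at 3.20, 3.93 and 6.27 CPM in control cells, 3.02, 3.39 and 4.27 CPM with the sh1 hairpin and 6.86, 7.51 and 7.41 CPM with the sh2 hairpin. It rose in sh2-*TUG1* by 1.62-fold (log2 fold change 0.69 ± 0.23, adjusted p = 0.0333). Only without sh-Con replicate 3, its highest control library, did the call stand when 1 library was left out (adjusted p 0.064 to 0.100 for the others).

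**Figure D2:**
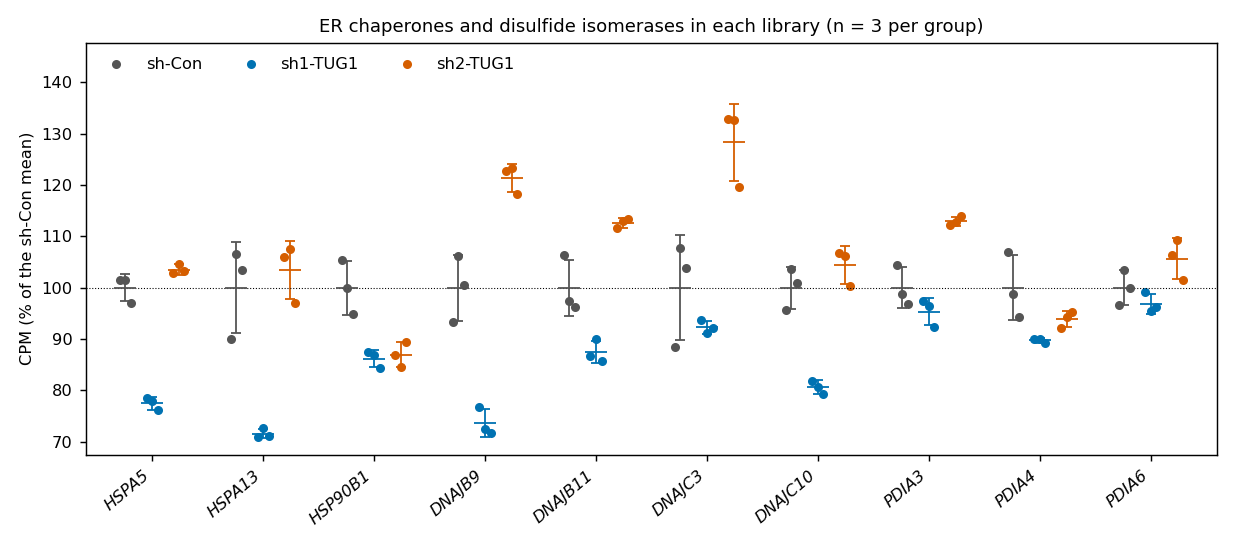
CPM as a percentage of the sh-Con mean (vertical axis) for 10 ER members (horizontal axis), with a point per library and the mean ± SD of 3 libraries for sh-Con (grey), sh1-*TUG1* (blue) and sh2-*TUG1* (orange). *HSPA5*, *HSPA13*, *DNAJB9*, *DNAJB11* and *DNAJC10* lie below the control libraries in sh1-*TUG1* and not in sh2-*TUG1*, while *HSP90B1* lies below in both lines. *PDIA4* lies below them in sh1-*TUG1* and overlaps them in sh2-*TUG1*.

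In sh2-*TUG1*, 5 of 18 ER members rose (*DNAJB9*, *DNAJB11*, *DNAJC3*, *PDIA2* and *PDIA3*) and 2 fell (*HSP90B1* and *PDIA5*), beside 21.6% of all genes that rose and 21.9% that fell. The median log2 fold change was 0.08, with 15 of 18 members above 0, beside 6404 of 12953 genes. Without sh-Con replicate 2 or sh2-*TUG1* replicate 1, 3 members rose in place of 5, and *DNAJB9*, *DNAJC3* and *PDIA3* kept their calls whichever library was left out.

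The lines were then compared directly, in a fit of all 9 libraries that does not route the difference through sh-Con. Of 18 ER members, 11 were higher in sh2-*TUG1* than in sh1-*TUG1* and 0 lower. Among all genes tested, 21.0% of 12854 genes were higher and 21.7% lower. The median log2 difference of the ER members was 0.23. For the lower direction, DESeq2 also called 0 and edgeR gave 0 at an unadjusted p under 0.05. Of 37 cytosolic members, 8 were higher and 2 lower (median 0.05), and of 10 mitochondrial members 1 was higher and 3 lower (median -0.00071). Over all 79 members 22 were higher and 6 lower, which is 35.4% called beside 42.7% of all genes. Scaling by library size alone in place of TMM factors moved the median of all genes from -0.00067 to -0.065, and the split over the members then became 16 higher and 10 lower, with the ER median at 0.17 and the cytosolic median at -0.01.

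The ER members that differed most between the lines were *PDIA2* (log2 difference of sh2-*TUG1* from sh1-*TUG1* 1.03 ± 0.23, adjusted p = 0.00368) and *DNAJB9* (0.72 ± 0.05, adjusted p = 9.31e-07), the only members more than 1.5-fold higher, where 2.56% of all genes were. *HSPA13* differed by 0.53 ± 0.06 (adjusted p = 4.27e-05), *DNAJC1*, an ER membrane J protein, by 0.50 ± 0.07 (adjusted p = 0.000238) and *DNAJC3* by 0.48 ± 0.07 (adjusted p = 0.000174). *HSPA5* differed by 0.42 ± 0.03 (adjusted p = 1.93e-06), which is 1.34-fold at the member with the highest RNA level in sh-Con. *DNAJC10*, *DNAJB11* and *PDIA3* followed at 0.37, 0.36 and 0.24. These 9 ER calls stood whichever library was left out. *DNAJB12* (0.19, adjusted p = 0.0305) and *PDIA6* (0.12, adjusted p = 0.0254) lost theirs in 4 of 9 removals each. *HSP90B1* differed by 0.01 ± 0.04 (adjusted p = 0.836) and *PDIA4* by 0.06 ± 0.04 (adjusted p = 0.262).

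**Figure D3:**
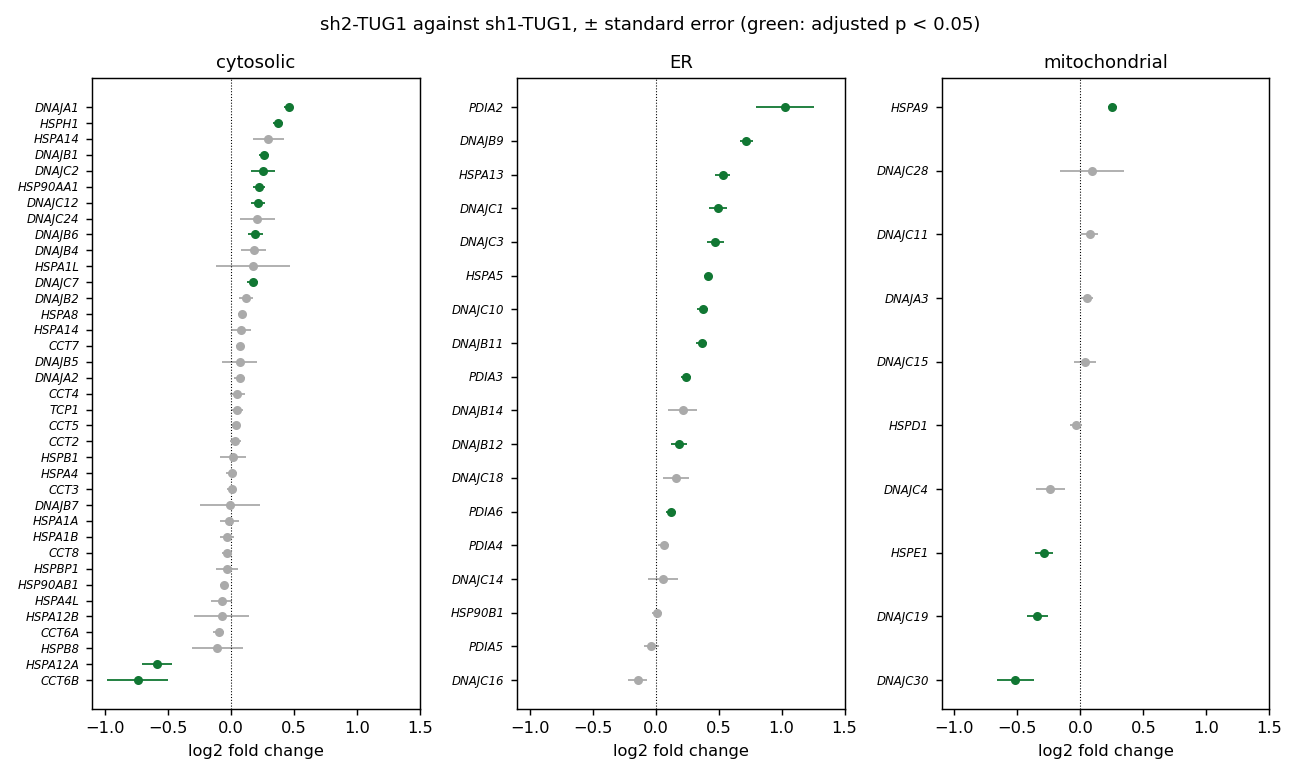
Log2 fold change of sh2-*TUG1* against sh1-*TUG1* with its standard error (horizontal axis) for each cytosolic, ER and mitochondrial member (vertical axis), in green where the adjusted p is under 0.05. In the ER panel 11 of 18 members are called and all lie to the right of 0, with *PDIA2* and *DNAJB9* farthest at 1.03 and 0.72.

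In the cytosol, sh1-*TUG1* had 5 members higher and 5 lower of 37, where 12.5% of all genes were higher and 12.3% lower. The sh2-*TUG1* line had 8 higher and 5 lower, where 21.6% and 21.9% of all genes were, and the medians were -0.02 and 0.05. The summed level was 7390, 7302 and 7372 CPM in sh1-*TUG1* against 7738, 7794 and 7874 CPM in sh-Con, which is 94.3% of the control mean, and 7712, 7642 and 7826 CPM in sh2-*TUG1*, which is 99.0%. The higher count in sh1-*TUG1* fell to 2 or 3 without sh-Con replicate 2 or 3 or any of the sh1-*TUG1* libraries, and the lower count ran from 2 (without sh1-*TUG1* replicate 1) and 3 (without sh1-*TUG1* replicate 2) to 8 (without sh-Con replicate 1). In sh2-*TUG1* the higher count was 5 when any library other than sh-Con replicate 1 was left out, and the lower count was 8 without sh-Con replicate 1. The calls that stood in every removal were *HSPH1*, *HSPB8*, *DNAJC12* and *HSP90AB1* in sh1-*TUG1*, and *HSPH1*, *HSPB8*, *DNAJA1*, *DNAJB1*, *DNAJB6*, *DNAJC12*, *HSP90AB1* and *HSPA12A* in sh2-*TUG1*.

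The HSP110 gene *HSPH1*, whose protein resets HSP70 by exchanging its nucleotide, was at 117, 121 and 117 CPM across sh-Con, 142, 144 and 142 CPM across sh1-*TUG1* and 187, 180 and 188 CPM across sh2-*TUG1*. The 3 groups were separate, with sh2-*TUG1* highest. *HSPH1* rose in sh1-*TUG1* (0.27 ± 0.04, adjusted p = 0.00173) and by 1.56-fold in sh2-*TUG1* (0.64 ± 0.05, adjusted p = 7.82e-06). The lines differed by 0.37 ± 0.04 (adjusted p = 1.71e-05). Of its relatives, *HSPA4* had log2 fold changes of 0.06 in either line (adjusted p = 0.386 and 0.331), and *HSPA4L* fell in sh2-*TUG1* (-0.26 ± 0.08, adjusted p = 0.0213; 0.057 to 0.082 without sh-Con replicate 2 or sh2-*TUG1* replicate 1 or 2).

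Of the J proteins that start the cytosolic HSP70 cycle, *DNAJA1* was at 229, 226 and 232 CPM in sh-Con cells, 229, 234 and 231 CPM in sh1-*TUG1* cells and 331, 317 and 307 CPM in sh2-*TUG1* cells. Only the sh2-*TUG1* libraries stood apart, and *DNAJA1* rose there (0.47 ± 0.05, adjusted p = 4.69e-05). In sh1-*TUG1* it gave 0.02 ± 0.04 (adjusted p = 0.803), and the lines differed by 0.46 ± 0.04 (adjusted p = 3.48e-06). *DNAJB1* (HSP40), the J protein most closely tied to the heat shock response, was at 151, 152 and 152 CPM in control cells, 172, 165 and 166 CPM with the sh1 hairpin and 204, 198 and 202 CPM with the sh2 hairpin, in 3 separate ranges. It rose in sh2-*TUG1* (0.40 ± 0.04, adjusted p = 8.21e-05) and in sh1-*TUG1* (0.14 ± 0.04, adjusted p = 0.03). The sh1-*TUG1* call ended, at 0.074 to 0.12, when any library but sh-Con replicate 1 was left out. The lines differed by 0.26 ± 0.04 (adjusted p = 0.000162). *DNAJB6*, which keeps aggregation-prone proteins soluble, rose in sh2-*TUG1* (0.30 ± 0.06, adjusted p = 0.00473).

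Of the HSP70 genes, *HSPA8*, the constitutive form, was at 1009, 998 and 1009 CPM across sh-Con, 971, 951 and 976 CPM across sh1-*TUG1* and 1005, 1018 and 1057 CPM across sh2-*TUG1*. Its log2 fold changes were -0.06 ± 0.03 (adjusted p = 0.255) and 0.03 ± 0.04 (adjusted p = 0.611). *HSPA1A* and *HSPA1B*, the stress-inducible pair on chromosome 6, have near-identical sequences, so how reads were split between them is uncertain. *HSPA1A* was at 101, 80.7 and 89.8 CPM in sh-Con cells, 104, 108 and 109 CPM in sh1-*TUG1* cells and 101, 102 and 116 CPM in sh2-*TUG1* cells. *HSPA1B* was at 109, 97.3 and 101 CPM in the controls, 118, 113 and 121 CPM in the sh1-*TUG1* line and 110, 113 and 122 CPM in the sh2-*TUG1* line. *HSPA1A* had log2 fold changes of 0.24 (adjusted p = 0.0409) and 0.23 (adjusted p = 0.0576), and *HSPA1B* of 0.20 (adjusted p = 0.025) and 0.17 (adjusted p = 0.0473). The *HSPA1A* value in sh2-*TUG1* passed with DESeq2 (adjusted p = 0.0223), in a fit of all 9 libraries (0.0298) and without sh-Con replicate 1 (0.0103). The *HSPA1A* call in sh1-*TUG1* and the *HSPA1B* call in sh2-*TUG1* stood only without sh-Con replicate 1, the highest control library for both genes. The *HSPA1B* call in sh1-*TUG1* ended without sh-Con replicate 2 or 3 or sh1-*TUG1* replicate 1 or 3 (adjusted p 0.054 to 0.15 over the ended calls). *HSPA12A*, a distant HSP70 relative, was at 7.44, 7.10 and 7.23 CPM in control cells, 7.47, 7.78 and 6.90 CPM with the sh1 hairpin and 4.65, 4.76 and 5.34 CPM with the sh2 hairpin, where *HSPA12A* fell (-0.56 ± 0.13, adjusted p = 0.0077).

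Of the cytosolic HSP90 genes, *HSP90AB1*, the constitutive form, was at 2050, 2088 and 2123 CPM across sh-Con, 1831, 1782 and 1762 CPM across sh1-*TUG1* and 1708, 1733 and 1739 CPM across sh2-*TUG1*, all below the control libraries. It fell with either hairpin, with log2 fold changes of -0.22 ± 0.04 for sh1 (adjusted p = 0.00185) and -0.28 ± 0.04 for sh2 (adjusted p = 0.000419). *HSP90AA1*, the stress-inducible form, was at 789, 759 and 792 CPM in sh-Con cells, 737, 714 and 751 CPM in sh1-*TUG1* cells and 840, 817 and 919 CPM in sh2-*TUG1* cells. Neither line passed the test against sh-Con (-0.09 ± 0.04, adjusted p = 0.126, and 0.14 ± 0.05, adjusted p = 0.0603), though DESeq2 (adjusted p = 0.0377) and the fit of all 9 libraries (0.028) called the sh2-*TUG1* value. *HSP90AA1* was higher in sh2-*TUG1* than in sh1-*TUG1* (0.23 ± 0.05, adjusted p = 0.00223).

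Of the small heat shock genes, *HSPB8*, which works with *BAG3* in clearing misfolded proteins, was rare, at 69, 56 and 106 counts in sh-Con, 202, 155 and 167 counts in sh1-*TUG1* and 153, 149 and 170 counts in sh2-*TUG1*. No knockdown library overlapped the controls. *HSPB8* rose 2.20-fold in sh1-*TUG1* (1.14 ± 0.24, adjusted p = 0.0069) and 2.05-fold in sh2-*TUG1* (1.03 ± 0.22, adjusted p = 0.00471), the largest changes among cytosolic members. Tested against a fold change of 1.5 it passed only at an unadjusted p under 0.05. *HSPB1* (HSP27), at 40.2 to 53.8 CPM in sh-Con, overlapped sh-Con in both lines (0.06 ± 0.10 and 0.07 ± 0.11).

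*DNAJC12*, a J protein that stabilises phenylalanine hydroxylase, a liver enzyme, and related amino acid hydroxylases, fell in both lines. It was at 68.1, 62.1 and 63.4 CPM in control cells, 42.2, 45.4 and 42.5 CPM with the sh1 hairpin and 51.8, 49.5 and 50.1 CPM with the sh2 hairpin, in 3 separate ranges. The sh1-*TUG1* value, -0.57 ± 0.06 (adjusted p = 0.000128), was the largest fall of any member in that line. The sh2-*TUG1* value was -0.36 ± 0.06 (adjusted p = 0.000924), and the lines differed by 0.22 ± 0.05 (adjusted p = 0.00742).

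Of the 9 subunit genes of the TRiC chaperonin, *CCT2* was called lower in sh1-*TUG1* (-0.21 ± 0.05, adjusted p = 0.00999, and 0.051 without sh1-*TUG1* replicate 1). It was also lower in sh2-*TUG1* (-0.18 ± 0.05, adjusted p = 0.0132, and 0.052 without sh-Con replicate 3). The other 8 were called in neither line. The medians over the 9 were -0.04 and -0.12. *TCP1*, the subunit that gave the complex its name, was at 316, 352 and 344 CPM across sh-Con, 344, 340 and 339 CPM across sh1-*TUG1* and 367, 343 and 348 CPM across sh2-*TUG1*. *CCT6B*, a testis-type subunit at 0.89 to 1.93 CPM in all libraries, was the only member whose level with sh2 was more than 1.5-fold under that with sh1 (-0.74 ± 0.24, adjusted p = 0.0287), where 8.04% of all genes were. That call ended without sh1-*TUG1* replicate 1 or 2 or sh2-*TUG1* replicate 1 or 2 (adjusted p 0.075 to 0.092).

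**Figure D4:**
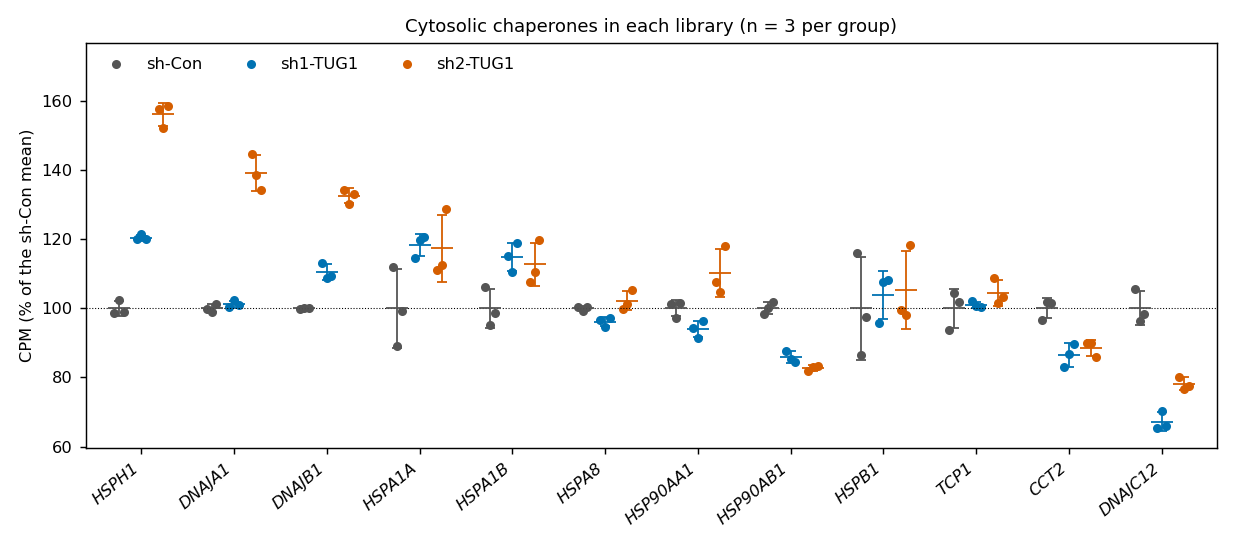
CPM as a percentage of the sh-Con mean (vertical axis) for 12 cytosolic members (horizontal axis), with a point per library and the mean ± SD of 3 libraries for sh-Con (grey), sh1-*TUG1* (blue) and sh2-*TUG1* (orange). *HSPH1*, *DNAJA1* and *DNAJB1* stand highest in sh2-*TUG1*, *HSP90AB1*, *CCT2* and *DNAJC12* lie below the control libraries in both lines, and *HSPA8* and *TCP1* stay near 100.

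Of the 10 mitochondrial members, 1 fell in sh1-*TUG1* (*HSPD1*), and in sh2-*TUG1* 4 fell (*HSPD1*, *HSPE1*, *DNAJC19* and *DNAJC30*) and 1 rose (*HSPA9*). Over all genes 12.3% fell in sh1-*TUG1*, and 21.9% fell and 21.6% rose in sh2-*TUG1*. The median log2 fold changes of the mitochondrial members were -0.06 and -0.12. Their summed level was 3001, 2986 and 2945 CPM in sh1-*TUG1*, all below the 3154, 3331 and 3160 CPM of sh-Con. That is 92.6% of the control mean. In sh2-*TUG1* the sum was 3089, 3144 and 3023 CPM, which is 96.0%. *HSPD1*, *HSPA9* and *DNAJA3* made up 91.2% of the sum in sh-Con. *HSPA9* (mortalin), the HSP70 protein that pulls precursors into the matrix, was at 986, 943 and 917 CPM in sh-Con cells, 901, 917 and 897 CPM in sh1-*TUG1* cells and 1074, 1083 and 1082 CPM in sh2-*TUG1* cells. The sh2-*TUG1* libraries were above all others, and *HSPA9* rose there (0.18 ± 0.04, adjusted p = 0.00637). In sh1-*TUG1* its value was -0.07 ± 0.04 (adjusted p = 0.235), and the lines differed by 0.25 ± 0.04 (adjusted p = 0.000184).

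*HSPD1* (HSP60) and *HSPE1* (HSP10) form the matrix folding chamber and lie head to head on chromosome 2, overlapping on opposite strands, so their counts may share reads. *HSPD1* was at 1702, 1938 and 1803 CPM in control cells, 1667, 1624 and 1606 CPM with the sh1 hairpin and 1598, 1648 and 1526 CPM with the sh2 hairpin, below the controls in both lines (-0.15 ± 0.05, adjusted p = 0.0474, and -0.19 ± 0.06, adjusted p = 0.0193). The sh1-*TUG1* call stood only without sh-Con replicate 1 (0.075 to 0.15 in the other removals). The sh2-*TUG1* call ended without sh-Con replicate 2 or sh2-*TUG1* replicate 1 or 3 (0.057 to 0.076). *HSPE1* was at 125, 137 and 135 CPM across sh-Con, 120, 140 and 138 CPM across sh1-*TUG1* and 111, 117 and 98.6 CPM across sh2-*TUG1*. It fell in sh2-*TUG1* (-0.29 ± 0.07, adjusted p = 0.00853) and overlapped sh-Con in sh1-*TUG1* (0.00 ± 0.07, adjusted p = 0.966).

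*DNAJC19*, a J protein of the inner membrane linked to protein import, was at 21.0, 20.2 and 19.9 CPM in sh-Con cells, 16.8, 16.7 and 19.1 CPM in sh1-*TUG1* cells and 14.7, 13.3 and 13.5 CPM in sh2-*TUG1* cells. It fell in sh2-*TUG1* (-0.56 ± 0.08, adjusted p = 0.000429) and was below all controls in sh1-*TUG1* without passing the test (-0.22 ± 0.08, adjusted p = 0.0741). *DNAJC30*, another inner membrane J protein, fell in sh2-*TUG1* (-0.57 ± 0.15, adjusted p = 0.0142) from 13.1, 10.7 and 11.2 CPM to 8.24, 6.20 and 9.15 CPM, and it overlaps *BUD23* on the opposite strand. *DNAJA3* (Tid1), which serves *HSPA9* in the matrix, was called in neither line (-0.10 ± 0.05 and -0.05 ± 0.05). Neither were *DNAJC28* (0.17 ± 0.25 and 0.27 ± 0.23) and *DNAJC4* (-0.08 ± 0.11 and -0.32 ± 0.12, adjusted p = 0.0583 in sh2-*TUG1*). The sh2-*TUG1* value of *DNAJC4* passed with DESeq2 (adjusted p = 0.0321), a fit of all 9 libraries (0.043) and library size alone (0.0394), and without sh-Con replicate 2 (0.0409) or sh2-*TUG1* replicate 3 (0.0227).

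**Figure D5:**
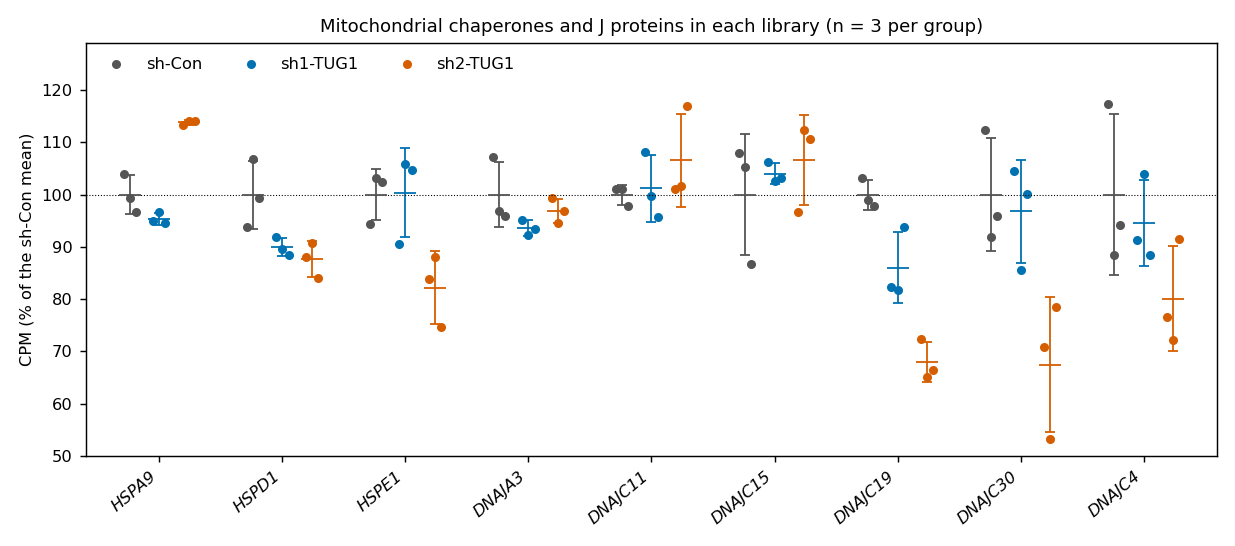
CPM as a percentage of the sh-Con mean (vertical axis) for 9 mitochondrial members (horizontal axis), with a point per library and the mean ± SD of 3 libraries for sh-Con (grey), sh1-*TUG1* (blue) and sh2-*TUG1* (orange). In sh2-*TUG1*, *HSPA9* and, narrowly, *DNAJC11* lie above and *HSPD1*, *HSPE1*, *DNAJC19* and *DNAJC30* lie below all control libraries.

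Among the 14 members of other locations, 3 rose and 1 fell in sh1-*TUG1*, and 4 rose and 3 fell in sh2-*TUG1*, beside 12.5% and 12.3% of all genes in the first line and 21.6% and 21.9% in the second. *DNAJC5* (cysteine string protein), a J protein of secretory vesicles, rose in sh1-*TUG1* from 190, 194 and 208 CPM to 249, 255 and 247 CPM (0.34 ± 0.05, adjusted p = 0.000802). It was at 218, 228 and 196 CPM in sh2-*TUG1* (0.11 ± 0.06, adjusted p = 0.179). *DNAJC9*, a nuclear J protein that handles histones, rose 1.51-fold in sh2-*TUG1* (0.60 ± 0.07, adjusted p = 0.000149) from 20.5, 19.2 and 19.8 CPM to 32.3, 28.5 and 29.4 CPM. In sh1-*TUG1* its value was 0.07 ± 0.09 (adjusted p = 0.603), and it overlaps *MRPS16* on the same strand. The readthrough gene *HSPB2-C11orf52*, at 0.85, 0.62 and 2.33 CPM in control cells, 4.33, 4.25 and 3.26 CPM with the sh1 hairpin and 1.20, 4.76 and 3.08 CPM with the sh2 hairpin, rose 3.07-fold in sh1-*TUG1* (1.62 ± 0.41, adjusted p = 0.0182; 0.059 without sh1-*TUG1* replicate 1 or 2) and overlaps *HSPB2* and *C11orf52* on the same strand. Its sh2-*TUG1* libraries overlapped sh-Con (1.23 ± 0.55, adjusted p = 0.0989), and the value passed the test without sh-Con replicate 3 (adjusted p = 0.0185) or sh2-*TUG1* replicate 1 (adjusted p = 0.0371).

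Genes that work with the ER members but carry other names were counted from a list of 24, covering folding helpers, oxidases and stress sensors. In sh1-*TUG1* 2 rose and 11 fell (median -0.13), in sh2-*TUG1* 12 rose and 4 fell (median 0.19), and between the lines 18 were higher in sh2-*TUG1* and 2 lower (median 0.29). The shares of all genes that rose and fell were 12.5% and 12.3% with the sh1 hairpin, 21.6% and 21.9% with the sh2 hairpin and 21.0% and 21.7% between the lines. The disulfide oxidase *ERO1A* fell in both lines (-0.86 ± 0.04, adjusted p = 8.58e-07, and -1.11 ± 0.05, adjusted p = 6.12e-07), as did the collagen chaperone *SERPINH1* (-0.57 and -0.71) and the folding helper *CRELD2* (-0.42 and -0.28). *XBP1*, the transcription factor that IRE1 activates by splicing, rose in both (0.25 and 0.47). The sensors were named after their values were seen. *ERN1* fell in sh1-*TUG1* (-0.26 ± 0.05, adjusted p = 0.00644) and rose in sh2-*TUG1* (0.45 ± 0.06, adjusted p = 0.000204). *ATF6* did likewise (-0.24 ± 0.05, adjusted p = 0.0086, and 0.24 ± 0.05, adjusted p = 0.00378). *EIF2AK3* rose in sh2-*TUG1* (0.46 ± 0.05, adjusted p = 7.02e-05) with -0.06 ± 0.05 in sh1-*TUG1* (adjusted p = 0.457). Calnexin (*CANX*), a lectin chaperone also named after its values were seen, rose in sh2-*TUG1* (0.40 ± 0.04, adjusted p = 7.98e-05).

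Of 21 cytosolic co-chaperones, 0 rose (0 also at an unadjusted p under 0.05 in edgeR and 0 in DESeq2) and 3 fell in sh1-*TUG1*, and 3 rose and 2 fell in sh2-*TUG1*, where the shares of all genes were the same as those just given. The falls included some subunits of prefoldin, which hands actin and tubulin to TRiC. Its listed subunit genes *PFDN1*, *VBP1* and *PFDN5* were called in neither line. *PFDN4* fell in both lines (-0.41 ± 0.05, adjusted p = 0.000489, and -0.43 ± 0.06, adjusted p = 0.000353). *PFDN6* fell in both (-0.25 and -0.35; the sh1-*TUG1* call ended at 0.063 to 0.067 without sh-Con replicate 2 or sh1-*TUG1* replicate 1 or 2), and *PFDN2* fell in sh1-*TUG1* (-0.48 ± 0.07, adjusted p = 0.000984). *CHORDC1*, an HSP90 partner, rose in sh2-*TUG1* (0.39 ± 0.06, adjusted p = 0.000452). Of 4 genes for heat shock factors and their binding protein, edgeR and DESeq2 each called 0 in sh1-*TUG1* (2 had an unadjusted p under 0.05 in edgeR, *HSF2* and *HSBP1*). *HSF1*, the main activator of the heat shock response, rose in sh2-*TUG1* (0.25 ± 0.06, adjusted p = 0.00668), and *HSF2* rose there (0.33 ± 0.10, adjusted p = 0.019; 0.058 without sh-Con replicate 3 and 0.078 without sh2-*TUG1* replicate 3). In sh1-*TUG1* their log2 fold changes were 0.07 and 0.23 and neither passed the test. Of 12 mitochondrial co-chaperones and proteases, 1 rose and 1 fell in sh1-*TUG1*, and 3 rose and 1 fell in sh2-*TUG1*, beside the same shares of all genes. *GRPEL2*, a nucleotide exchange factor of the matrix HSP70, rose in sh1-*TUG1* (0.22 ± 0.06, adjusted p = 0.0305, and 0.052 to 0.10 without any library but sh-Con replicate 1) and in sh2-*TUG1* (0.32 ± 0.07, adjusted p = 0.00679). Its relative *GRPEL1* rose in sh2-*TUG1* (0.22 ± 0.07, adjusted p = 0.0225, and 0.071 to 0.090 without sh2-*TUG1* replicate 1 or 2). *TIMM44*, which anchors that HSP70 at the import channel, also rose there (0.23 ± 0.06, adjusted p = 0.0189, and 0.075 to 0.080 without sh-Con replicate 3 or sh2-*TUG1* replicate 1). In the same line *TRAP1*, the mitochondrial HSP90, fell (-0.56 ± 0.07, adjusted p = 0.000148; -0.15 ± 0.06, adjusted p = 0.0833, in sh1-*TUG1*).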

How the data were processed

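Sequencing libraries of HepG2 cells were analysed, 3 per group, with groups and replicate numbers from the sample labels. The authors deposited a table of raw read counts per gene for each knockdown line against sh-Con. The same deposited tables hold FPKM values, a false discovery rate (an adjusted p-value) and a log2 fold change of the authors' own comparison, none of which was used. The submitters' processing notes name HISAT2, StringTie and GRCh38. Versions, the counting tool, its strand setting and the annotation are not given in the sources used here. Every per-sample count column was matched to a sample.

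Counts were scaled with TMM factors (0.974 to 1.02) and tested with edgeR 4.0.16 (limma 3.58.1, R 4.3.3), using glmQLFit and glmQLFTest with Benjamini–Hochberg adjustment over all 13017, 12953 or 12854 genes. The filter filterByExpr removed 0 genes, because the lowest total count of a listed gene was 152 in the sh1-*TUG1* table and 140 in the sh2-*TUG1* table. CPM values are TMM-scaled over genes in both tables. Positions, exon lengths and overlaps came from GENCODE 29 and promoters from RefSeq. In simulated counts on 13017 genes for sh1-*TUG1*, 72% of 1.5-fold and 84% of 2-fold changes were recovered, and for sh2-*TUG1* on 12953 genes 69% and 83%. Changes under 1.5-fold, the size of most member calls here, were not simulated. How far precision is set by the spread between libraries or by counting error at each level was not tested. Members under 10 CPM have the least depth.

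The members and lists were chosen with earlier results of these data known. Genes named were core members by role and members past the test with a fold change over 1.5. The 3 largest changes per compartment and line were added. So were up to 4 genes per context list, by the larger adjusted p of the lines. Other members described with values, such as *DNAJC5*, *DNAJB6*, *CCT2*, *PDIA5*, *HSPA4*, *HSPA4L* and *DNAJC1*, come under none of these rules. Their naming followed no fixed rule. Each fit was repeated with library size alone, with RLE size factors, with DESeq2 1.42.0, with other low-count filters, over all 9 libraries together, blocked by replicate number, against a fold change of 1.5 and without each library in turn.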

Additional observations from a re-analysis of the deposited data

Results flagged for a closer look

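The changes of 28 members differed between the knockdown lines in a direct test of sh2-*TUG1* against sh1-*TUG1* (edgeR's quasi-likelihood test, adjusted p under 0.05), beside 42.7% of all genes. In the ER they were *PDIA2* (log2 difference 1.03), *DNAJB9* (0.72), *HSPA13* (0.53), *DNAJC1* (0.50), *DNAJC3* (0.48), *HSPA5* (0.42), *DNAJC10* (0.37), *DNAJB11* (0.36), *PDIA3* (0.24), *DNAJB12* (0.19) and *PDIA6* (0.12), all higher in sh2-*TUG1*. In the cytosol *DNAJA1* (0.46), *HSPH1* (0.37), *DNAJB1* (0.26), *DNAJC2* (0.25), *HSP90AA1* (0.23), *DNAJC12* (0.22), *DNAJB6* (0.20) and *DNAJC7* (0.17) were higher and *HSPA12A* (-0.58) and *CCT6B* (-0.74) lower in sh2-*TUG1*. In mitochondria *HSPA9* (0.25) was higher and *DNAJC30* (-0.52), *DNAJC19* (-0.34) and *HSPE1* (-0.29) lower, and of the other members *DNAJC9* (0.52) and *DNAJC13* (0.17) were higher and *DNAJC5* (-0.22) lower. Of the 22 higher and 6 lower calls, 17 and 4 stood whichever of the 9 libraries was left out. The lines carry different hairpins, and hairpin and line cannot be told apart.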

How the results depend on the processing

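RLE size factors, other low-count filters, DESeq2 and a fit of all 9 libraries kept every count compared within 1.5 times. They kept every cytosolic, ER and mitochondrial median within the spread between libraries. The smallest compartment counts and the members of other locations were not compared in this way. Tested against a fold change of 1.5, 0 members were called in any comparison (2 in each at an unadjusted p under 0.05). With library size alone, the cytosolic median became 0.0041 in sh1-*TUG1*, 0.00993 in sh2-*TUG1* and -0.011 between the lines, the ER median -0.15, 0.047 and 0.17, the mitochondrial median between the lines -0.065, the cytosolic higher count 5 in sh2-*TUG1* and 5 between the lines, and the lower count of all members between the lines 10. That scaling also turned the sign of *HSPA8* in sh2-*TUG1* (-0.00765) and, between the lines, of *HSP90B1* (-0.052), *HSPB1* (-0.043), *TCP1* (-0.016) and *DNAJA3* (-0.0143). Without the members of uncertain compartment (*DNAJB12*, *DNAJB14*, *DNAJC14*, *DNAJC18* and *DNAJC4*) the ER median was -0.20 in sh1-*TUG1* and 0.37 between the lines, and the mitochondrial median in sh2-*TUG1* -0.048. The replicate numbers did not pair the samples (correlations of same-numbered libraries from -0.33 to 0.011), and with the replicate block the cytosolic higher count in sh2-*TUG1* was 5 and the ER counts were 8 lower in sh1-*TUG1*, 5 higher in sh2-*TUG1* and 10 higher between the lines. Library size alone ended the calls of *PDIA4* (adjusted p = 0.0549) and *HSPD1* (0.0995) in sh1-*TUG1*, *HSPA1B* in sh2-*TUG1* (0.0983) and *PDIA6* between the lines (0.245). The block ended those of *DNAJB1* (0.0635) and *HSPD1* (0.0549) in sh1-*TUG1*, *HSPA1B* in sh2-*TUG1* (0.0847) and *CCT6B* between the lines (0.0506). Between the lines *HSP90AB1* passed with library size alone (-0.12, adjusted p = 0.0138) and *HSPA8* with DESeq2 (0.087, adjusted p = 0.0306).

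Leaving out each library in turn, the higher and lower counts of all members ran from 3 to 8 and 7 to 19 in sh1-*TUG1*, 12 to 18 and 10 to 15 in sh2-*TUG1* and 18 to 24 and 4 to 7 between the lines. The cytosolic counts ran from 2 to 5 and 2 to 8 in sh1-*TUG1*, 5 to 9 and 4 to 8 in sh2-*TUG1*, and 6 to 9 higher between the lines. The ER counts ran from 5 to 10 lower in sh1-*TUG1*, 3 to 5 higher in sh2-*TUG1* and 9 to 12 higher between the lines, and the mitochondrial count from 3 to 4 lower in sh2-*TUG1*. Cytosolic medians ran from -0.039 to -0.015, 0.017 to 0.058 and 0.043 to 0.064 in these comparisons, ER medians from -0.19 to -0.16, 0.052 to 0.12 and 0.21 to 0.26, and mitochondrial medians from -0.094 to -0.011, -0.14 to -0.093 and -0.079 to -0.00071. Signs turned for genes near 0. In sh1-*TUG1* *HSPA12A* ran from -0.016 to 0.069, *HSPB1* from -0.045 to 0.17, *TCP1* from -0.037 to 0.040, *DNAJC30* from -0.11 to 0.037, *DNAJC4* from -0.17 to 0.045, *HSPE1* from -0.041 to 0.074 and *DNAJC9* from -0.022 to 0.15. In sh2-*TUG1* *HSPA13* ran from -0.025 to 0.096, *HSPB1* from -0.019 to 0.19 and *DNAJA3* from -0.076 to 0.0042. Between the lines *HSP90B1* ran from -0.011 to 0.032, *HSPA1A* from -0.084 to 0.028, *HSPA1B* from -0.077 to 0.0046, *HSPB1* from -0.076 to 0.070, *HSPB8* from -0.19 to 0.055 and *DNAJC28* from -0.13 to 0.24. The causes of these differences were not tested. The 17 members under 10 CPM in sh-Con have the least depth.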
